A study of Mus musculus with 6 samples.

Results

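The genes described here are 8 mouse genes that mark mammary cell lineages or carry hormone signals: Esr1, Pgr, Prlr, Foxa1, Gata3, Elf5, Kit and Trp63. They were chosen by symbol, and each symbol was found once among the 31053 genes of the tumor count table, so 8 of 8 could be measured. The mammary epithelium has an inner luminal layer and an outer basal layer. Luminal cells divide into hormone-sensing cells, which carry the estrogen and progesterone receptors and answer ovarian hormones, and a hormone receptor-negative lineage that holds the progenitors of milk-secreting cells. FOXA1 and GATA3 are known partners of the estrogen receptor on chromatin, ELF5 directs the secretory fate downstream of prolactin, KIT marks luminal progenitors, and p63 maintains basal identity.

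The study compared a microfluidic device for breaking tissue into single cells with a conventional digest. Mammary tumors came from MMTV-PyMT mice at 10 weeks of age, female by the description of the methods, in which a viral promoter active in mammary epithelium drives the polyoma middle T oncogene, so the tumor cells are transformed cells of that epithelium. Minced tumor was digested with type I collagenase, either for 60 min in the control or with collection from the device after 15 min and after 60 min. By the description of the methods, the device was refilled with collagenase after a collection, and the remaining tissue was processed further. The 60 min device library thus lacks the cells already collected at 15 min, whereas the control is a whole digest. Live cells, sorted as SytoxBlue-negative, went into droplet libraries that count the 3′ ends of polyadenylated RNA, with 1 library for each condition. By the description of the methods, all conditions of a replicate used tissue of the same mouse, so the 3 tumor libraries are not 3 animals. With 1 library a condition there was no replicate and no test, and each interval below is an exact 95% interval that covers counting error only (Poisson for UMIs, Clopper-Pearson for shares of cells).

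The deposited tumor libraries held 8177, 8198 and 8152 cells in the control, the 15 min and the 60 min library. Cells with 200 to 4000 detected genes and no more than 25% of UMIs from mitochondrial genes were kept, 5736, 5802 and 6024 of them, with 50661627, 54841077 and 58014175 UMIs (unique molecular identifiers, 1 for each RNA molecule counted). The median kept cell held 8210, 9228 and 9476 UMIs. Of 17529 distinct barcodes among kept cells, 33 occurred in more than 1 library. Levels are given as CPM, a gene's UMIs over all UMIs of the cells in question on the usual scale of single-cell counts, and one without a length term because the assay counts 3′ ends.

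Cells were assigned by marker genes that include none of the 8 members. Epithelial cells needed at least 4 UMIs of Epcam, Cdh1, Cldn3 and Cldn7 per 10000 and no leukocyte, endothelial or stromal marker level above its threshold, and 10111 cells passed. Luminal cells, with Krt8, Krt18 and Krt19 at 4 or more and Krt5, Krt14 and Krt17 under 2 per 10000, numbered 3135, 3592 and 2145, or 54.7%, 61.9% and 35.6% of the kept cells. Cells with Krt5, Krt14 and Krt17 at 20 or more per 10000 numbered 50, 57 and 131, and those between both limits 245, 289 and 257. The basal label fitted these keratin-high cells only in part. Their 8 basal markers summed to 6236, 6998 and 8822 CPM, led by Krt14, but the contractile marker Myh11 gave 0, 2 and 5 UMIs and Cnn1 0, 1 and 9. Krt8 was at 4944, 3903 and 2510 CPM, above the 3071, 1396 and 1785 of luminal cells, as was the sum of the 3 luminal keratins (10512, 9052 and 5211 against 7128, 3895 and 4521), and the median cell of each library held no Acta2 UMI. They are called basal keratin-high cells here, and they form the top of a continuous range, with 132 cells just below the threshold (10 to 20 per 10000), 96 just above it (20 to 40) and 142 at 40 or more.

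Esr1 (ENSMUSG00000019768, chr10:4611593-5005614, plus strand, mm10), the gene of estrogen receptor alpha, was scarce in tumor epithelium. In the order control, 15 min and 60 min, luminal cells held 52, 103 and 51 Esr1 UMIs, or 1.82 (1.36 to 2.39), 2.84 (2.32 to 3.45) and 2.42 (1.80 to 3.18) CPM. An Esr1 UMI was found in 1.44%, 2.62% and 2.24% of luminal cells, at median depths of 8305, 9963 and 9325 UMIs. Leukocytes, which served as the reference for free RNA at median depths of 9882, 8730 and 10407, gave 1.28%, 1.62% and 1.79%. The intervals of luminal and leukocyte shares overlapped in each library. Leukocytes are no clean reference for this gene, since 3 leukocyte clusters held 4.53, 4.24 and 4.76 CPM, and endothelial cells held 1.19, 0.528 and 0.471. Thinned to 2000 UMIs, which left out 270, 102 and 99 luminal cells, the luminal shares were 0.419%, 0.602% and 0.538%, beside 0.284%, 0.436% and 0.361% in leukocytes.

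Esr1 was higher in stroma than in luminal cells as a whole. Stromal cells, gated by Pdgfra, Pdgfrb, Col1a1 and Col3a1, held 7, 19 and 43 Esr1 UMIs in 60, 94 and 381 cells, or 13.4 (5.38 to 27.6), 25.6 (15.4 to 39.99) and 11.4 (8.27 to 15.4) CPM. These levels were 7.35-fold (2.82 to 16.2), 9.01-fold (5.21 to 14.8) and 4.72-fold (3.07 to 7.23) those of luminal cells of the same library. The receptor was uneven within the stroma. Fibroblast-list cells reached 17.5, 33.6 and 12.4 CPM, and pericyte-list cells gave 0, 0 and 3 Esr1 UMIs in 17, 28 and 79 cells, a difference that was not tested. Among clusters of all kept cells, a fibroblast-marked one of 149 cells held 31.3 Esr1 CPM. Another fibroblast-marked cluster, of 262 cells, held 6.48, and a pericyte-marked one 3.66. Endothelial cells held 2, 1 and 3 Esr1 UMIs.

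Pgr (ENSMUSG00000031870, chr9:8899833-8968611, plus strand), the gene of the progesterone receptor and a classic estrogen target, gave 99 UMIs in all kept cells. Luminal cells held 23, 44 and 8 of them, or 0.805 (0.510 to 1.21), 1.21 (0.882 to 1.63) and 0.380 (0.164 to 0.748) CPM. Leukocytes and endothelial cells held 0 Pgr UMIs in each library, where 3 UMIs would be 0.261, 0.341 and 0.200 CPM in leukocytes. The luminal level was low, but the cells that should lack the transcript gave none. Pgr-detected cells made up 0.478%, 1.03% and 0.280% of luminal cells, and 0.209%, 0.258% and 0.0978% after thinning. Stromal cells held 1, 4 and 11 Pgr UMIs, or 1.91, 5.39 and 2.92 CPM. These levels were 2.375-fold (0.058 to 14.6), 4.44-fold (1.16 to 12.2) and 7.70-fold (2.82 to 22.1) the luminal ones, and the control interval includes 1.

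Foxa1 (ENSMUSG00000035451, chr12:57540628-57546916, minus strand), the gene of the forkhead factor that opens chromatin for the estrogen receptor, gave 89 UMIs in all kept cells. Luminal cells held 28, 37 and 14 of them, or 0.980 (0.651 to 1.42), 1.02 (0.719 to 1.41) and 0.664 (0.363 to 1.11) CPM. Stromal, endothelial, intermediate and basal keratin-high cells held 0 Foxa1 UMIs in each library, and leukocytes held 4, 0 and 2. Foxa1 was thus about as low as Pgr in luminal cells but, unlike Pgr and Esr1, was not found in stroma. Its UMIs were also bunched: of the 46 luminal cells with a Foxa1 UMI, 9 held 3 or more, whereas of the 187 cells with an Esr1 UMI only 1 did.

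Prlr (ENSMUSG00000005268, chr15:10177238-10349180, plus strand), the gene of the prolactin receptor, was far more abundant than the steroid receptors. Luminal cells held 2165, 4278 and 1528 Prlr UMIs, or 75.8 (72.6 to 79.0), 118 (114 to 122) and 72.5 (68.9 to 76.2) CPM. Prlr was found in 38.9%, 55.7% and 39.7% of luminal cells and in 0.855%, 1.01% and 0.414% of leukocytes. After thinning the luminal shares were 13.3%, 18.4% and 12.3%, and the leukocyte shares 0.189%, 0.436% and 0.144%. The prolactin receptor was thus broadly expressed in the luminal cells of all 3 libraries. Intermediate cells held 59.8, 103 and 60.5 CPM, and leukocytes 1.48, 1.14 and 0.399. Stromal cells held 2, 0 and 2 Prlr UMIs, and the luminal level of the 15 min library was at least 29.2-fold the stromal one.

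Gata3 (ENSMUSG00000015619, chr2:9857078-9890034, minus strand), the gene of the zinc finger factor that specifies luminal fate, reached 193 (188 to 199), 289 (284 to 295) and 229 (223 to 236) CPM in luminal cells. It was found in 67.0%, 83.1% and 76.0% of them, and in 31.7%, 41.5% and 34.6% after thinning. Outside the epithelium Gata3 was uneven across cell types. Leukocytes as a whole held 15.8, 17.8 and 23.4 CPM, and those assigned to the T lymphocyte list 72.7 (60.5 to 86.6), 115 (95.2 to 137) and 227 (202 to 255). Macrophage-list cells held 2.62, 2.49 and 2.39 CPM, and stromal cells 1, 1 and 11 UMIs. Gata3 is a known regulator of T lymphocytes, so its leukocyte UMIs sat in cells where the gene has its own role. Among clusters of all kept cells, the highest Gata3 level, 485 CPM, was in 1 leukocyte cluster of 314 cells (62, 57 and 195 by library) in which 5 of 5 T lymphocyte markers were found and Trbc2 led them.

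Elf5 (ENSMUSG00000027186, chr2:103411688-103450989, plus strand), the gene of the ETS factor of the secretory alveolar lineage, had the highest luminal level of the 8. It reached 277 (271 to 283), 333 (327 to 339) and 301 (294 to 309) CPM and was found in 71.8%, 81.2% and 77.5% of luminal cells. After thinning these shares were 37.8%, 44.7% and 39.4%, beside 0.379%, 0.872% and 0.722% in leukocytes. Elf5 was close to absent outside the epithelium, with 2, 6 and 8 UMIs in endothelial and 1, 1 and 6 in stromal cells.

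Kit (ENSMUSG00000005672, chr5:75574916-75656722, plus strand), the gene of the stem cell factor receptor, held 107 (103 to 110), 151 (147 to 155) and 115 (110 to 119) CPM in luminal cells. It was found in 48.4%, 61.0% and 51.7% of them, and in 19.6%, 24.0% and 19.4% after thinning. Kit was also expressed outside the epithelium, where endothelial cells carried 52.7 (42.4 to 64.9), 45.9 (36.8 to 56.7) and 44.9 (39.9 to 50.4) CPM. The endothelial shares were 21.1%, 21.7% and 25.6%, and 10.9%, 6.996% and 7.82% after thinning. Dendritic-list cells, 18, 11 and 43 in number, held 58.3, 31.7 and 32.6 Kit CPM, and stromal cells held 2, 1 and 5 UMIs. Of mast cells, which are known for KIT, the leukocyte gate held 1, in the 60 min library and with 3 Kit UMIs, but mast cell markers also summed to 517 CPM, led by Cma1, in a cluster of mixed markers with 56.1 Kit CPM, in which macrophage markers summed to 11227 CPM, led by C1qa, and luminal keratins to 1169.

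Trp63 (ENSMUSG00000022510, chr16:25683763-25892102, plus strand), the gene of p63, was low in luminal cells, at 3.71 (3.04 to 4.49), 6.18 (5.40 to 7.05) and 9.54 (8.26 to 10.9) CPM. It was found in 2.46%, 3.65% and 5.31% of them, and in 0.803%, 1.09% and 1.27% after thinning. Leukocytes held 2, 1 and 1 Trp63 UMIs, or 0.171%, 0.101% and 0.0690% of cells, so the luminal values stood above the reference for free RNA in each library. Basal keratin-high cells held 28.1 (15.0 to 48.0), 53.3 (35.7 to 76.5) and 117 (98.7 to 138) CPM. Stromal and endothelial cells together gave Trp63 UMIs only in the 60 min library, 5 and 2.

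**Figure D1:**
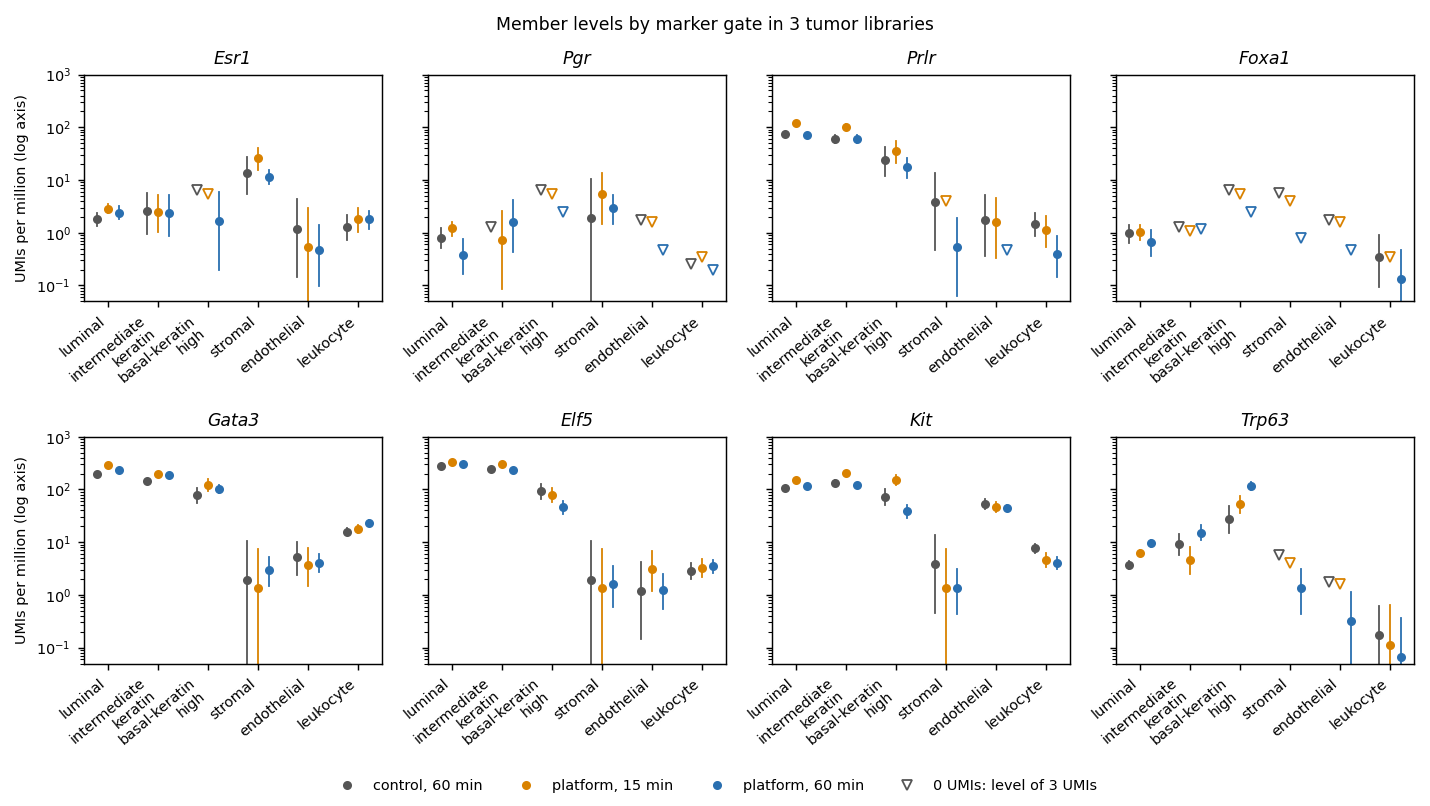
CPM (log axis) of each member in 6 marker-gated cell groups, with 1 point for each of the 3 tumor libraries and exact Poisson 95% intervals; open triangles mark 0 UMIs and sit at the level of 3 UMIs. Elf5 in luminal cells lies between 277 and 333, Esr1 is highest in stromal cells at 11.4 to 25.6, Kit keeps 44.9 to 52.7 in endothelial cells, and Trp63 is highest in basal keratin-high cells at 28.1 to 117.

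In luminal cells the order of levels was Elf5, Gata3, Kit, Prlr, Trp63 and Esr1 in each of the 3 libraries, on the scale of 3′ CPM. The intervals of neighbours in that order did not overlap. Pgr and Foxa1 came last, and their intervals overlapped each other in each library. In the control library the Foxa1 interval (0.651 to 1.42) also overlapped that of Esr1 (1.36 to 2.39). Elf5, Gata3, Kit and Prlr were thus found in a large share of tumor luminal cells, and Trp63 and the hormone-sensing genes Esr1, Pgr and Foxa1 in few.

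Basal keratin-high cells were compared with luminal cells to ask which members differ with the level of basal keratins. A member counted as different when its levels differed at least 2-fold in the same direction in each library, and 4 of 8 did, 1 higher and 3 lower in the basal keratin-high cells. Of the 14630 genes with at least 20 UMIs in epithelial cells, 5.71% passed the same rule, 4.22% as higher and 1.5% as lower. Among 7501 genes with at least 1000 UMIs it was 5.21%, 2.51% as higher and 2.71% as lower, and 3 of the 4 members that abundant passed. The median gene of that abundance had ratios of 1.05, 1.03 and 1.04.

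Trp63 was higher in the basal keratin-high cells, 7.57-fold (3.90 to 13.5) in the control, 8.62-fold (5.64 to 12.7) in the 15 min and 12.3-fold (9.84 to 15.3) in the 60 min library. Elf5 fell from 277, 333 and 301 CPM in luminal cells to 92.9, 79.0 and 46.2, ratios of 0.335 (0.242 to 0.452), 0.237 (0.172 to 0.320) and 0.153 (0.116 to 0.200). Prlr fell to 23.8, 34.9 and 17.3 CPM, ratios of 0.314 (0.156 to 0.562), 0.296 (0.178 to 0.462) and 0.239 (0.148 to 0.367). Taken as a whole, basal keratin-high cells thus had more Trp63 and less Elf5 and Prlr than luminal cells in each library. With thresholds halved the directions stayed, but the control ratios of Elf5 and Prlr were 0.508 and 0.692 and no longer past 2-fold.

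Gata3 fell less, to 77.8, 123 and 102 CPM, with ratios of 0.402 (0.281 to 0.557), 0.425 (0.329 to 0.541) and 0.446 (0.370 to 0.534). Each Gata3 interval reached past the 2-fold limit, and the gene kept a clear level in basal keratin-high cells. Kit did not pass, with ratios of 0.689 (0.476 to 0.964), 0.998 (0.792 to 1.24) and 0.338 (0.248 to 0.451). With classes taken from Leiden clusters instead of gates, the members past 2-fold also numbered 4, but Kit was among them at 0.123, 0.165 and 0.0948 and Gata3 was not, at 0.699, 0.598 and 0.537. The 304 cells of the basal cluster held 143 Trp63, 12.3 Kit and 139 Gata3 CPM. Whether Kit or Gata3 counted as luminal-biased thus turned on how basal cells were drawn. Esr1 gave 0, 0 and 2 UMIs in basal keratin-high cells and Pgr and Foxa1 gave 0, where 3 UMIs would be 6.48, 5.51 and 2.48 CPM, so no difference was detectable for these genes at this depth.

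The course over the range of basal keratin differed between libraries. In steps chosen after the values were seen, epithelial cells of all 3 libraries with Krt5, Krt14 and Krt17 at under 2, 2 to 5, 5 to 10, 10 to 20, 20 to 40 and 40 or more per 10000 held 6.35, 6.23, 13.5, 15.7, 51.0 and 104 Trp63 CPM. Elf5 held 305, 303, 228, 169, 78.2 and 54.6 CPM over the same steps. Gata3 held 242, 188, 169, 158, 112 and 95.7. The 60 min library gave 90 of the 142 cells in the last step, so the pooled values lean on it there. Within the libraries Trp63 went from 3.94, 6.29 and 9.71 CPM in the first step to 54.3, 73.8 and 127 in the last, and Elf5 from 275, 332 and 298 to 127, 84.9 and 26.0. Between these ends Trp63 in the control library was at 7.25, 17.1, 3.07 and 4.13 CPM, 10 UMIs at the 17.1 and 1 UMI each at the last pair of values, so it followed no steady course. The 15 min library had 3.45, 3.14, 12.8 and 32.9, and the 60 min library 8.72, 20.7, 26.5 and 95.6. Elf5 also took no common course at the end of the range. From the step of 20 to 40 to the last, it went from 62.0 to 127 CPM in the control and from 73.1 to 84.9 in the 15 min library, with overlapping intervals. Only in the 60 min library did it fall there, from 92.8 to 26.0.

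Kit followed no common course over that range. Cells at 2 to 5 per 10000 held 138 (120 to 160), 236 (213 to 260) and 131 (112 to 151) Kit CPM in the control, 15 min and 60 min libraries, beside 107, 151 and 115 below that step. At 40 or more, Kit was at 18.1 (4.94 to 46.4) and 26.0 (16.3 to 39.4) in the control and 60 min libraries but at 184 (137 to 243) in the 15 min library. In the control library the step from 10 to 20 was higher still, at 148 (109 to 196), and in the 60 min library the interval at 2 to 5 overlapped that of the step below (110 to 119). The 15 min interval at 40 or more also overlapped that at 2 to 5, and differences between the libraries were not tested. A cluster of 1213 cells with the basal markers at 690 CPM, led by Krt14, carried the highest Kit level of all clusters, 284 CPM, with the progenitor markers Aldh1a3, Cd14 and Ltf at 7666 CPM in sum, led by Ltf. Mast cell markers in intermediate cells summed to 0, 33.6 and 0 CPM, led by Cma1 in 2 cells, and their part in the 15 min Kit level was not tested.

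The hormone-sensing lineage was sought next, by 6 markers that are not members: Cited1, Prom1, Ly6a, Areg, Tnfsf11 and Wnt4. Of 8872 luminal cells, 7026 held a UMI of none, 1610 of 1, 202 of 2 and 34 of 3 or more. The groups by number of markers were chosen after the values were seen. The 34 cells, 0.383% of luminal cells, came from all 3 libraries (14, 11 and 9), and Scrublet marked 0 of them as doublets. Their median depths of 7523, 11865 and 8237 UMIs were close to the 7617, 9605 and 8698 of cells with no marker, and they held 1, 1 and 1 UMI of Ptprc, Col1a1 and Pecam1.

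In these 34 cells 4 of 8 members were at least 2-fold higher than in cells with no marker in each library and 1, Elf5, was lower, beside 3.43% and 0.774% of the 14345 genes with at least 20 luminal UMIs. Prlr reached 876 (722 to 1053), 2635 (2355 to 2940) and 978 (769 to 1226) CPM, beside 68.6, 109 and 67.5 in luminal cells with no marker, ratios of 12.8 (10.5 to 15.5), 24.2 (21.4 to 27.1) and 14.5 (11.3 to 18.3). Foxa1 rose from 0.368, 0.147 and 0.442 to 85.3 (42.6 to 153), 140 (81.3 to 224) and 65.2 (21.2 to 152) CPM. Pgr rose from 0.184, 0.953 and 0.315 to 85.3 (42.6 to 153), 98.5 (50.9 to 172) and 26.1 (3.16 to 94.2). Esr1 rose from 1.61, 2.53 and 2.14 to 15.5 (1.88 to 56.0), 90.3 (45.1 to 162) and 26.1 (3.16 to 94.2) CPM. All 4 were higher in each library, Esr1 with 2, 11 and 2 UMIs in the group.

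The ratios of the scarce members carry wide intervals. Foxa1 was 232-fold (84.9 to 663), 952-fold (311 to 3890) and 148-fold (37.0 to 541) higher than in cells with no marker. Pgr was 463-fold (137 to 1995), 103-fold (47.5 to 212) and 82.7-fold (7.88 to 505) higher. Esr1 was 9.63-fold (1.12 to 37.5), 35.7-fold (17.1 to 68.0) and 12.2-fold (1.42 to 47.4) higher. These few cells held 33 of the 79 luminal Foxa1 UMIs, or 41.8% (30.8 to 53.4), and 25 of the 75 Pgr UMIs, or 33.3% (22.9 to 45.2). They held 6.39% (5.86 to 6.94) of the Prlr UMIs and 7.28% (4.13 to 11.7) of the Esr1 UMIs.

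The remaining members differed in direction. Elf5 fell from 280, 337 and 309 CPM to 101, 24.6 and 26.1, ratios of 0.360 (0.191 to 0.615), 0.0731 (0.0151 to 0.214) and 0.0846 (0.0102 to 0.306). Gata3, shared by both luminal lineages, rose in the control and 15 min libraries and was 1.67-fold (1.21 to 2.26), 2.29-fold (1.82 to 2.85) and 1.23-fold (0.769 to 1.86) the level of cells with no marker. Trp63 gave 0 UMIs in the 34 cells, a number of cells too small to show a fall from its luminal level. Kit had ratios of 0.752 (0.360 to 1.39), 1.04 (0.617 to 1.65) and 0.701 (0.257 to 1.53), but in the 15 min library its 18 UMIs came from 1 of the 11 cells. Over the 3 libraries 17.6% of these cells held a Kit UMI, beside 52.5% of cells with no marker.

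**Figure D2:**
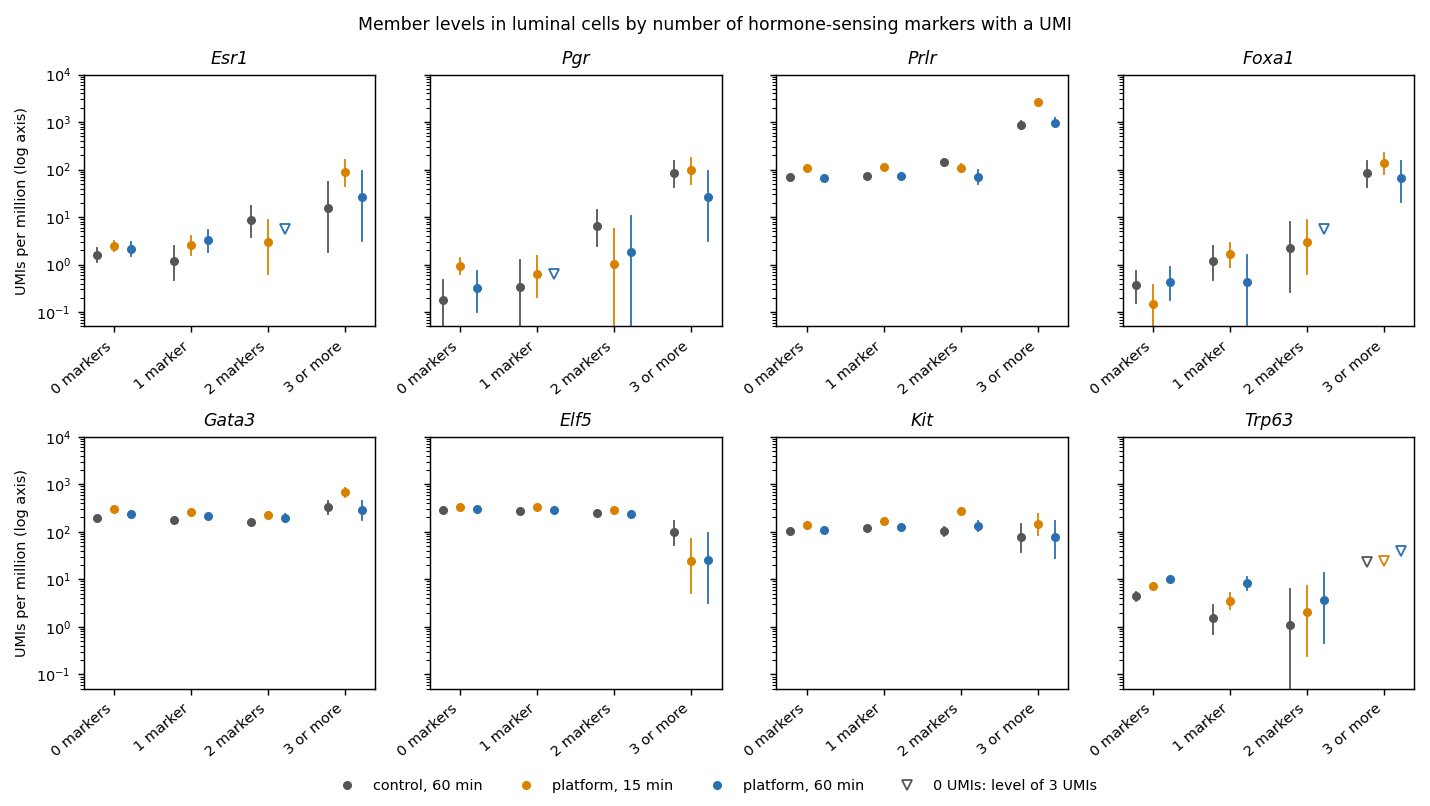
CPM (log axis) of each member in luminal cells with a UMI of 0, 1, 2 or at least 3 of 6 hormone-sensing markers, with 1 point for each tumor library, exact Poisson 95% intervals, and open triangles at the level of 3 UMIs where none was found. Prlr reaches 876 to 2635 and Foxa1 65.2 to 140 in the last group, where Elf5 falls to 24.6 to 101.

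The rise was not a steady one along the number of markers. Over the 3 libraries together, Prlr was at 85.4, 90.4, 112 and 1554 CPM with 0, 1, 2 and 3 or more markers, and Foxa1 at 0.293, 1.21, 2.05 and 101. Most of the cells with 1 or 2 markers held Ly6a or Prom1, at 374 and 62.7 CPM with 2 markers, and few held Cited1, at 6.97. Cited1 itself was at 666 CPM in the 34 cells and found in 61.8% of them. High Prlr coincided with the markers: of the 22 luminal cells with 10 or more Prlr UMIs, 15 had 3 or more of them.

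Other genes were also higher in sum over the 34 cells, named after their values were seen. Ptn, a secreted growth factor gene, was at 2861 CPM against 1.14 in cells with no marker, with its UMIs in 13 of the 34 cells. Fxyd2 was at 953 against 0.647, Tph1 at 568 against 0.0308 and Gpx3 at 596 against 1.42. The T-box factor gene Tbx3 was at 70.2 against 0.231, also in 13 cells. The milk protein genes were low: Wap gave 0 UMIs against 84.4 CPM, Lalba 88.6 against 1900 and Csn3 2315 against 14670. Of 11 hormone-sensing and hormone target genes, 6 were at least 2-fold higher in each library (3.43% of all genes) and 0 lower, but 5 of these 6 are markers used for grouping, and Greb1, Calca, Fgf10 and Cxcl12 gave 0 UMIs.

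Clusters of all kept cells placed 22 of the 34 cells in 1 luminal cluster of 614 cells, of which 430 came from the control, 51 from the 15 min and 133 from the 60 min library. That cluster was shallow, with a median of 1743 UMIs, and its levels were 448 Prlr, 24.4 Pgr, 23.7 Foxa1 and 14.7 Esr1 CPM, each the highest or, for Esr1, the highest after a fibroblast-marked cluster at 31.3. Its 6 hormone-sensing markers summed to 656 CPM, led by Ly6a, and it held 0 Trp63 CPM. The clusters were drawn from the same genes, so these levels are a description, and the part of depth in them was not tested. The 34 cells held 33 Foxa1, 25 Pgr and 15 Esr1 UMIs in all. The cluster levels include 22 of these cells, so they are no separate finding. How much the rest of the 614 cells gave was not tested.

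Detection of pairs in single luminal cells joined Foxa1 and Pgr in the control and 15 min libraries, where 5 of 20 and 7 of 18 Foxa1-detected cells held Pgr, but 0 of 8 did in the 60 min library. Of the 46 cells with a Foxa1 UMI, 26.1% also held Pgr and 80.4% Prlr, beside 0.521% and 45.7% of the other cells, at median depths of 9040 and 9302 UMIs. Elf5 was found in 47.8% of Foxa1-detected and 77.1% of other cells. Of the 58 cells with a Pgr UMI, 77.6% held Prlr and 63.8% Elf5, beside 45.7% and 77.1% of the others, but in the 15 min library Elf5 was at 78.4% against 81.3%. At 2000 UMIs, 11 of 15 Foxa1-detected cells held Prlr and 1 held Elf5, beside 15.1% and 41.1% of the other cells. Of the 187 cells with an Esr1 UMI, 3.21% held Pgr, 4.28% Foxa1, 56.1% Prlr and 80.2% Elf5, beside 0.599%, 0.438%, 45.7% and 76.9% of the other cells, at median depths of 10257 and 9271. The Elf5 direction flipped after thinning, to 11 of 44 cells against 41.1%, while Prlr stayed higher at 31.8% against 15.1%. In each library 4 of the 7 other members had a higher share in Esr1-detected than in other cells, as had 19.3% of 14344 genes with at least 20 luminal UMIs and 27.8% of 7093 with at least 1000 (3 of 4 members), and 1 of 7 did after thinning, when 12, 21 and 11 Esr1-detected cells were left.

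Because Foxa1, Prlr, Pgr and Esr1 rose together in the rare cells, their promoters were searched for short motifs. RefSeq promoter windows (GRCm38.p6, the 250 bases before each listed start of a gene) were available for 7 of the 8 members, all but Trp63, with 12 windows in all. The forkhead motif TGTTTAC, searched on both strands, occurred in windows of 2 members, Foxa1 and Prlr, and in 3.17% of all 32851 windows of that length. The STAT motif TTCNNNGAA occurred in windows of Esr1 and Prlr and in 7.02% of all windows. Of the other motifs, the ETS motif occurred in 1 Prlr window and in 19.7% of all, and the motif of GATA factors and the nuclear receptor motif AGGTCA, a single copy of a site that is often paired, in no window of a member and in 9.99% and 14.02% of all. A match is a description of the sequence and no evidence of binding. The forkhead windows of Foxa1 and Prlr lie inside the gene spans given above, before other listed starts. The Prlr window just before its span, chr15:10176988-10177237, had no forkhead match. Both windows with a forkhead match are shown because Prlr gave the most UMIs of the 8 members in the 34 cells and Foxa1 had the highest share of its luminal UMIs there, with the matching letters in capitals, read 5′ to 3′ on the gene's strand and without the 20 bases next to the start; they cover chr12:57546132-57546361 (minus strand) for Foxa1 and chr15:10223656-10223885 (plus strand) for Prlr.
Foxa1: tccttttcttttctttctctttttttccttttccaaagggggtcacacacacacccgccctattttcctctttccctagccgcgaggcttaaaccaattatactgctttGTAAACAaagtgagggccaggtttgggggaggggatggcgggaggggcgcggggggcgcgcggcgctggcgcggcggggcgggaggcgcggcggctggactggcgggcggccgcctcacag
Prlr: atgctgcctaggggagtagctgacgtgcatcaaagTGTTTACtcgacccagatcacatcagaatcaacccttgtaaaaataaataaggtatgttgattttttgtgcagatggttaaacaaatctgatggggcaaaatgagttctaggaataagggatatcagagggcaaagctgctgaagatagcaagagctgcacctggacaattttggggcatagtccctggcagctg

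All luminal cells, the 34 included, were then described along 2 marker lists, the progenitor markers Aldh1a3, Cd14 and Ltf and the milk protein genes Lalba, Csn3, Wap, Csn2, Csn1s1 and Glycam1. Luminal cells of each library were ranked by the summed level of a list and divided into 4 groups of like size. In luminal cells Ltf alone gave 1824, 2707 and 3431 of the 2434, 3216 and 4057 CPM of the progenitor sum. Csn3 gave 13637, 15278 and 14510 of the 15827, 17603 and 15981 CPM of the milk protein sum. The groups thus rank cells mostly by Ltf and by Csn3. Kit rose with the progenitor markers, from 85.8, 96.2 and 78.7 CPM in the lowest to 137, 242 and 150 in the highest group, 1.60-fold (1.44 to 1.78), 2.51-fold (2.32 to 2.72) and 1.91-fold (1.69 to 2.17). Elf5 rose as well, 1.58-fold (1.47 to 1.69), 1.38-fold (1.31 to 1.46) and 1.60-fold (1.49 to 1.73). Trp63 fell from 6.44, 7.98 and 17.1 to 1.30, 2.58 and 3.48 CPM, ratios of 0.202 (0.0895 to 0.414), 0.323 (0.195 to 0.519) and 0.204 (0.118 to 0.336). Prlr was also lower in the highest group, at ratios of 0.609, 0.715 and 0.847 with intervals below 1. Pgr UMIs numbered 0, 1 and 0 there against 16, 22 and 4 in the lowest group, and Foxa1 UMIs 2, 0 and 1 against 17, 27 and 3. The part of the cells with 3 or more hormone-sensing markers in these differences was not tested. Among luminal cells Trp63 was thus lower, and Kit higher, where the progenitor sum led by Ltf was high. Aldh1a3 and Cd14 were not ranked on their own.

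Along the milk protein genes Kit and Elf5 parted. Elf5 rose 1.67-fold (1.56 to 1.80), 1.47-fold (1.39 to 1.55) and 1.60-fold (1.48 to 1.73) from the lowest to the highest group. Kit fell from 153, 224 and 134 to 87.5, 130 and 102 CPM, ratios of 0.572 (0.516 to 0.635), 0.579 (0.537 to 0.623) and 0.758 (0.674 to 0.851). Gata3 rose 1.20-fold (1.10 to 1.30), 1.17-fold (1.11 to 1.24) and 1.33-fold (1.22 to 1.45), and Prlr had ratios of 0.775 (0.686 to 0.875), 0.740 (0.680 to 0.804) and 0.789 (0.685 to 0.908). The lower Prlr level rested on the few cells with 3 or more hormone-sensing markers: without them, an alternative chosen after the data were seen, the Prlr ratios were 0.977 (0.857 to 1.11), 0.987 (0.902 to 1.08) and 0.958 (0.825 to 1.11). Kit stayed at 0.567, 0.576 and 0.749 without them, and Elf5 at 1.65, 1.45 and 1.58. Foxa1 UMIs in the highest group numbered 0, 0 and 2, against 22, 33 and 11 in the lowest, or 11, 16 and 6 there without the cells with 3 or more markers.

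Luminal cells with 5 or more UMIs of 6 proliferation markers (Mki67, Top2a, Birc5, Cdk1, Ube2c and Hmmr) numbered 80, 40 and 60. Kit was lower in them than in cells with none, at 58.3, 109 and 68.1 against 108, 150 and 116 CPM, ratios of 0.539 (0.392 to 0.724), 0.728 (0.548 to 0.949) and 0.586 (0.438 to 0.770). Elf5 had ratios of 0.748 (0.636 to 0.874), 0.554 (0.448 to 0.679) and 0.900 (0.781 to 1.03), and Gata3 of 0.732 (0.601 to 0.884), 0.607 (0.487 to 0.747) and 0.852 (0.721 to 1.00). Prlr did not differ beyond its intervals, at 0.921 (0.691 to 1.20), 1.17 (0.906 to 1.48) and 0.871 (0.643 to 1.16). Kit was thus lower in cycling cells of each library, whereas the 60 min intervals of Elf5 and Gata3 reached 1.

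Luminal cells with p63 transcript were looked at on their own, a choice made after the values were seen. Trp63 was absent from 8550 luminal cells, gave 1 UMI in 230 and 2 or more in 92 (16, 44 and 32 by library), with up to 18 in a cell. The 92 cells held 0 Krt5 and 0 Krt17 UMIs, and their Krt14, at 15.3 CPM (8.76 to 24.9), did not differ from the 12.9 (12.1 to 13.7) of cells without Trp63. The gate itself keeps the sum of these 3 keratins low. The luminal keratins were lower in the 92 cells than in cells without Trp63, Krt8 at 1001 against 2087 CPM and Krt18 at 1327 against 2752. Kit was lower in the 92 cells, at ratios of 0.231 (0.0629 to 0.592), 0.429 (0.297 to 0.600) and 0.418 (0.247 to 0.662), while the Gata3 intervals included 1, at 1.29 (0.918 to 1.75), 1.04 (0.879 to 1.22) and 0.811 (0.630 to 1.03). Elf5 was at 0.780 (0.543 to 1.08), 0.807 (0.678 to 0.954) and 0.638 (0.498 to 0.806), and Prlr at 0.405 (0.131 to 0.946), 0.747 (0.546 to 0.998) and 0.964 (0.628 to 1.42). Snai2, a transcription factor gene of basal cells, was at 20.1 against 0.644 CPM, Lgals7 at 242 against 30.2 and Fermt1 at 59.4 against 9.94. Of the contractile genes, Acta2 gave 1 UMI, at 0.958 (0.0243 to 5.34) against 0.717 CPM, and Myh11 gave 0. These counts are too low to show a difference. Other basal and p63-related genes of the lists, such as Itgb4 and Perp, were not compared between these cells. Csn2 was at 1.92 against 51.0, Aldh1a3 at 6.71 against 44.8 and Ltf at 1086 against 2627. Snai2 gave 21 UMIs, in 15 of the 92 cells, too few to say how many of them carried it.

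The platform intervals were then set against the control in luminal cells, to ask whether the way of taking the tumor apart changed the members' levels in like cells. In the 15 min library 4 of 8 members differed at least 1.5-fold from the control, all 4 higher. Of 13859 genes with at least 20 UMIs over both luminal groups together, 18.5% passed, 11% as higher and 7.5% as lower. The median of these genes was itself raised by 0.19 on the log2 scale, and that of the 6220 genes with at least 1000 UMIs by 0.17, a ratio of 1.12 (7.14% of these genes passed, 3.92% as higher and 3.22% as lower, and 1 of 4 members, Prlr). The members' median was 0.59 on that scale. Relative to the median gene of higher abundance, 0 of 8 members passed 1.5-fold.

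Prlr was 1.56-fold (1.48 to 1.64) the control in the 15 min library, and 97.3% of the genes with at least 1000 UMIs had a lower ratio. Gata3 was at 1.49 (1.45 to 1.55), above 95.9% of these genes, and Kit at 1.42 (1.35 to 1.48), above 92.9%. Elf5, at 1.20 (1.17 to 1.23), stood above 65.6% and so was near the ordinary gene. The 3 other members past the limit were scarce: Esr1 at 1.56 (1.11 to 2.22), Pgr at 1.51 (0.891 to 2.62), which flipped to 0.741 with means of per-cell values, and Trp63 at 1.67 (1.32 to 2.12). Foxa1 was at 1.04 (0.620 to 1.77). Divided by the median gene's ratio, Prlr was at 1.38, Gata3 at 1.33, Kit at 1.26 and Elf5 at 1.07.

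Marker lists moved between the same luminal groups. The 3 luminal keratins summed to 7128, 3895 and 4521 CPM in the control, 15 min and 60 min libraries, led by Krt18, and the proliferation markers to 79.1, 35.8 and 79.3, led by Birc5. The progenitor markers summed to 2434, 3216 and 4057, led by Ltf, and the 6 milk protein genes to 15827, 17603 and 15981, led by Csn3. The part of these differences in the members' ratios was not tested. In cells without a proliferation marker UMI, Prlr was at 1.52 and Kit at 1.39 times the control.

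In the 60 min library 2 of 8 members differed at least 1.5-fold from the control, 1 higher and 1 lower, beside 11% of 13496 genes, 5.22% as higher and 5.76% as lower. The median gene had a log2 ratio of -0.02. Trp63 was 2.57-fold (2.02 to 3.28) higher, and Pgr was at 0.472 (0.182 to 1.09) with 8 against 23 UMIs, an interval that includes 1, and this direction flipped to 1.52 when all deposited cells were used. The abundant members stayed near the control: Prlr at 0.957 (0.896 to 1.02), Gata3 at 1.18 (1.14 to 1.23), Elf5 at 1.09 (1.05 to 1.12) and Kit at 1.08 (1.02 to 1.14). None of these 4 passed 1.5-fold, whereas 3.5% of the 4994 genes with at least 1000 UMIs did, 1.3% as higher and 2.2% as lower. Both platform libraries were compared with the same control. The raised Prlr of the 15 min interval was not seen in the 60 min interval, where 43.1% of these genes had a lower ratio. The 60 min interval holds cells left after the 15 min collection, so this is no course over time in like cells. Gata3 still stood above 92.6% of them, Elf5 above 79.8% and Kit above 78.1%.

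Trp63 was also higher in the basal keratin-high cells of the 60 min library, at 4.17-fold (2.36 to 8.03) the control level, and at 1.90-fold (0.956 to 3.98) in those of the 15 min library. In intermediate cells it was at 1.66 (0.950 to 2.98) after 60 min and at 0.512 (0.236 to 1.07) after 15 min, so the 15 min rise of luminal cells did not extend to them. The library also had more basal keratin-high cells, 2.18% of kept cells against 0.872% in the control and 0.982% in the 15 min library. In luminal cells the 8 basal markers summed to 18.3, 22.6 and 27.9 CPM, led by Krt14 and with all 8 found, and the fibroblast markers to 15.0, 15.5 and 51.2, led by Col3a1. Their part in the Trp63 levels was not tested.

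**Figure D3:**
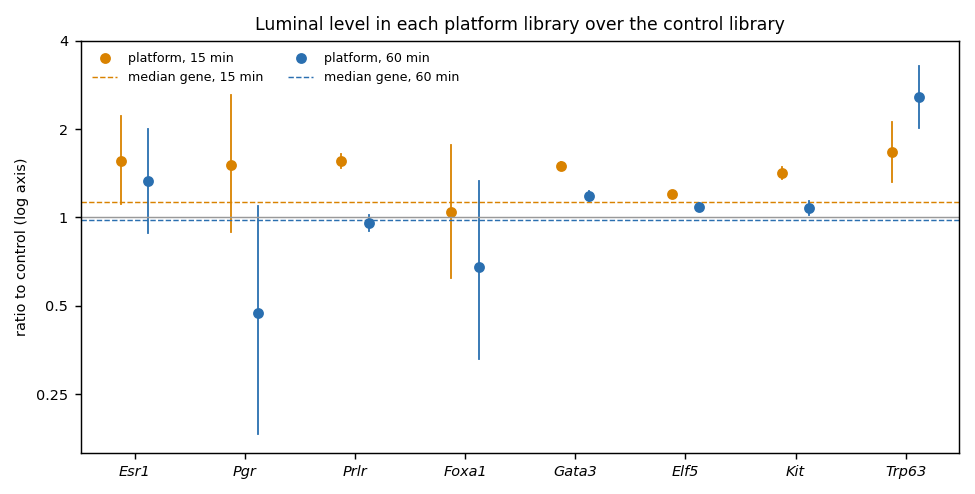
Ratio of the luminal level in each platform library to the control library (log axis) for the 8 members, with exact 95% counting intervals, 1 library a condition; dashed lines mark the median gene with at least 1000 UMIs. Trp63 after 60 min (2.57) lies farthest above 1 and Pgr after 60 min (0.472) farthest below, and the 15 min median gene lies at 1.12.

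Over all kept cells the libraries also differed in their cell types. Prlr went from 47.1 CPM in the control to 85.1 in the 15 min and 30.2 in the 60 min library, ratios of 1.81 (1.72 to 1.90) and 0.643 (0.604 to 0.684). Elf5 went from 172 to 239 and 124 CPM, and Kit from 72.9 to 117 and 56.4. In these whole-library levels Prlr, Elf5 and Kit of the 60 min library were lower than the control. Within luminal cells Elf5 and Kit were not lower, and the Prlr ratio was 0.957 (0.896 to 1.02). The luminal shares were 54.7%, 61.9% and 35.6%. Trp63 rose in both views, from 3.26 to 5.03 and 7.52 CPM in all kept cells.

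Other genes of the pathways were taken from fixed lists. Of all genes with at least 20 UMIs in epithelial cells, 4.22% were at least 2-fold higher in basal keratin-high than in luminal cells in each library. The share at least 2-fold lower was 1.5%. Of 13 basal and p63-related genes, 10 were at least 2-fold higher in basal keratin-high cells in each library and 0 lower, Krt14, Krt5 and Krt17 being the gate's own. Itgb4 had ratios of 2.21, 4.79 and 2.60 and Perp of 5.13, 6.46 and 8.80. Of 11 prolactin signalling genes, 0 were higher and 4 lower: Csn3 at 0.254, 0.152 and 0.125, Lalba at 0.0851, 0.0616 and 0.0365, Csn2 at 0.0707 and 0.0314 with 0 UMIs in the 60 min library, and Stat5a at 0.421, 0.282 and 0.109. Other genes of the list were mixed, with Csn1s1 at 0.0301, 1.35 and 0.0961, Wap at 0.517, 0.0417 and 0.00862, and Jak2 at 1.16, 0.629 and 1.78. Of 12 luminal transcription factor genes, 2 were lower, Xbp1 at 0.318, 0.207 and 0.252 and Tfap2c at 0.423, 0.291 and 0.479. Of 12 other receptor genes Vdr, the vitamin D receptor gene, was higher at 3.23, 2.94 and 3.56. Of 6 genes of the Kit axis, 0 passed in either direction.

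Between platform and control luminal cells, 3 of the 11 prolactin genes were higher at 15 min, Csn2 at 1.91, Stat5a at 1.59 and the sparse Glycam1, and 0 were lower. Of all genes, 11% were higher and 7.5% lower. Stat5b was at 1.38 and Jak2 at 1.04. At 60 min 1 prolactin gene was higher, Csn2 at 1.89, and 1 lower, Lalba at 0.610, beside 5.22% and 5.76% of all genes. Of the 12 other receptor genes 5 were higher at 15 min, against 11% of all genes, and 4 at 60 min, against 5.22%. Ghr was at 1.61 after 15 min, less than 1.5-fold relative to the median gene. Esr2 was at 0.385, 0.828 and 0.712 CPM in luminal cells, below Esr1 in each library. Among the luminal factors Klf5 fell to 0.431 and 0.646 of the control and Elf3 to 0.652 at 15 min. Of the ligands, Kitl stood at 72.6, 96.6 and 69.2 CPM in luminal cells, and Prl gave 0 UMIs in epithelial cells. The lists for coregulators gave 0 genes past 1.5-fold in either interval, and that for the Kit axis gave 1, Pik3r1 at 1.67 in the 15 min library.

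Genes with a pattern like a member's were ranked by Pearson correlation of log2 levels over 33 combinations of cell class and library, among 12873 genes with at least 200 UMIs. The points share libraries and depth, so r is a description. They mix epithelial with leukocyte, endothelial and stromal classes, so genes that are both mostly epithelial can have a high r. Elf5 was most like Tfap2c (r = 0.965), Tfap2a (0.943), Wfdc18, Slc44a3 and Trf. Prlr was most like Wnk2 (0.984), Rasef (0.982), Timd2, Atp6v1c2 and Ddo. Gata3 was most like Sytl1 (0.934), Dennd2d, Eya2, Cited4 and Cdh1, and Kit like Spint2 (0.903), Ly6e, Arhgef5, Krtcap3 and Fam84b. Trp63 was most like Fermt1 (0.956), 4631405K08Rik (0.953), Lgals7, Fam84a and Pipox. The scarce members had other neighbours. Chrdl1 (0.789), Prg4, Prcd and Clec11a were among the genes most like Esr1, Pgr was most like Fgf7 (0.907), Zfhx4, Opcml, Bmp3 and Nova1, and Foxa1 like Tph1 (0.736), Amtn, Prol1, Gm4847 and Dppa1. Among the members themselves, Prlr and Elf5 (0.918) were closest, and Trp63 followed Prlr at 0.838 and Elf5 at 0.79 over these classes. Within the epithelium they differed, since basal keratin-high cells had more Trp63 and less Prlr and Elf5 than luminal cells. Esr1 and Pgr followed each other at 0.745, and Esr1 and Gata3 had an r of -0.04.

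Kidney libraries of the same series, from 12-week C57BL/6 males and with 1 library a condition, gave a tissue outside the mammary gland. Over all deposited cells, Elf5 was at 199, 266 and 146 CPM in the tumor and gave 37, 1 and 34 UMIs in the kidney control, 15 min and 60 min libraries. Prlr was at 59.6, 97.5 and 37.7 CPM in tumor and 1.15, 2.06 and 1.88 in kidney. Gata3 was at 119, 218 and 112 CPM in tumor and 9.07, 1.48 and 11.9 in kidney. Kit was at 66.9, 115 and 56.1 CPM in tumor and 3.06, 0.607 and 6.33 in kidney, and Trp63 at 2.98, 4.67 and 6.36 and 0.344, 0.180 and 0.230. Foxa1 was at 0.796, 0.889 and 0.495 CPM in tumor and gave 9, 0 and 7 UMIs in kidney. The steroid receptor genes were closer between the tissues, Esr1 at 2.14, 2.85 and 3.13 CPM in tumor and 1.74, 1.71 and 1.70 in kidney, and Pgr at 0.465, 1.05 and 0.814 in tumor and 0.517, 0.137 and 0.832 in kidney, with the kidney level lower at 15 min.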

How the data were processed

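The authors counted UMIs with Cell Ranger 3.1.0, which aggregated the libraries after subsampling reads to even depth, and the deposited values are raw counts of UMIs per gene and cell. Cells with 200 to 4000 genes and at most 25% mitochondrial UMIs were kept. Cell types came from marker sums per 10000 UMIs. Levels were summed UMIs of a gene over summed UMIs of the cells, with exact Poisson, binomial and conditional ratio intervals. A ratio against 0 UMIs was bounded at 3 UMIs. For shares, cells were thinned to 2000 UMIs. No doublets were removed. Scrublet marked 89, 174 and 161 deposited tumor cells, 39, 61 and 63 of them kept. Clusters used Leiden (20 components, 2000 genes, 20 neighbours, resolution 0.5, seed 0). The genes named are the 8 members, the listed pathway genes and the 5 genes most like each member. The members and lists were chosen with earlier results of these data known. Alternatives were all deposited cells, thresholds halved or doubled, Leiden classes, Scrublet-marked cells left out, per-cell means, division by the median gene, thinning, deeper luminal cells, cells without proliferation markers and each library left out. The median gene, the depth limit and leaving out libraries were chosen after seeing the data. Counting was tested on simulated data. Software was Python 3.11.15, numpy 2.4.6, scipy 1.17.1, pandas 2.3.3, scanpy 1.11.5 and leidenalg 0.10.2.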

Additional observations from a re-analysis of the deposited data

How the results depend on the processing

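The choice of basal cells changed the count of members that differed from luminal cells. With marker thresholds halved, 1 of 8 members (Trp63) differed at least 2-fold in each library, from 4, and the cause was not tested. Without each library in turn the count was 4 to 4, but the rule asks for each library, so leaving one out could not lower it. For the 15 min interval, the count past 1.5-fold went from 4 to 1 with means of per-cell values and to 0 after division by the median ratio of genes, and the cause of the former was not tested. Thinning to 2000 UMIs lowered the count of members with a higher share in Esr1-detected cells in each library from 4 to 1. Direction reversed for Pgr in a pair of settings: 60 min over control rose to 1.52 with all deposited cells, and 15 min over control fell to 0.741 with per-cell means. Of 456 member values recomputed, 365 stayed within their counting interval or were unchanged, 89 left it and 2 reversed. The 365 include 16 values for each library left out, which that setting could not change. The 89 include 24 thinned shares, which were set against intervals of unthinned shares. The tally is thus no measure of how stable the values are. No paired analysis was possible because each condition had 1 library, although the conditions of a replicate came from 1 mouse by the description of the methods. Depth limited Esr1, Pgr and Foxa1 in basal keratin-high cells, where 3 UMIs already amount to 2.48 to 6.48 CPM.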

Other observations

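Differences between libraries cannot be told from differences between tumor pieces, runs or the order of collection from the device, since each condition had 1 library. Intervals cover counting error and no variation between mice. Levels are transcript counts, and receptor protein or activity was not measured. The keratin gate that sets luminal cells apart also limits what can be seen of basal keratins within them, and the MMTV promoter that drives the oncogene acts in mammary epithelium, so the tumor cells need not match normal luminal cells. Free RNA adds a background that was read from leukocytes and not subtracted. The groups by hormone-sensing markers, keratin steps and Trp63 UMIs were drawn after values were seen and were not tested in other data.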
